A study of Mus musculus with 4 samples.

Results

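Megakaryocytes and platelet precursors were sought in single-cell libraries of mouse tibial and femoral epiphyses, and 98 of 30952 kept cell barcodes met the rule that chose them. A barcode was kept when it held at least 500 detected genes and at most 15% mitochondrial UMIs, a UMI (unique molecular identifier) being 1 counted RNA molecule. It was selected when Pf4, Itga2b, Gp9, Gp1bb and Treml1 together reached 10 UMIs per 10,000 UMIs of the barcode, C1qa, C1qb and C1qc together stayed under 10, and Mcpt8 and Prss34 together stayed under 15. The barcodes were thus chosen by the measured levels of these genes, which are given as a description, as is every difference between the selected and the other barcodes. The selected barcodes numbered 9 of 6340 in the control library at postnatal day 13, 15 of 7241 in the control at day 19, 12 of 7429 in the mutant at day 13 and 62 of 9942 in the mutant at day 19.

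Epiphyses, the cartilaginous ends of the long bones, were digested with Liberase and loaded on Chromium v3 chips, and each of the 4 libraries is the single sample of its group. The controls are labelled wild type, and the mutants carry Sox9 fl/fl alleles with AcanCreERT2/+. The sample labels for age and genotype differ from the series' own design text, which speaks of mice aged 3 months and of a further mutant of both Sox8 and Sox9; the sample labels were followed, so every age and genotype value below rests on them. In these mutants a tamoxifen-dependent Cre recombinase is driven by the aggrecan gene, which is active in chondrocytes, and the floxed gene encodes the chondrocyte regulator SOX9. The sources used here give no tamoxifen schedule, strain or number of animals in a sample. Sox9 outside the selected barcodes stood at 3.15, 1.76, 1.51 and 1.08 UMIs per 10,000 in control day 13, control day 19, mutant day 13 and mutant day 19, the order used for every set of 4 values that follows, and it gave 8 UMIs in all selected barcodes together. The libraries held 70507107 to 76080803 UMIs, and 60 to 85 barcode sequences of each library also occurred in another one, among them 1 selected barcode of the control at day 19.

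Megakaryocytes are the large polyploid cells of the marrow that shed platelets. They grow from progenitors under thrombopoietin, guided by GATA1, FLI1, RUNX1 and NF-E2, replicate their DNA without dividing, fill up with alpha and dense granules, and extend proplatelets built on beta-1 tubulin. Platelets stick to injured vessel wall through the GPIb-IX-V complex (Gp1ba, Gp1bb, Gp9, Gp5) that holds von Willebrand factor, through the collagen receptor GPVI (Gp6), and through the fibrinogen receptor made of Itga2b and Itgb3, while Pf4 and Ppbp are chemokines stored in alpha granules and Treml1 is a receptor of the same granules.

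The promoters of the selecting genes are shown because the sum of these 5 genes chose the barcodes. RefSeq's table of build GRCm38.p6 held a window for 5 of the 5 selecting genes and for 7 of 10 further platelet genes, namely Gp1ba, Gp5, Gp6, Ppbp, Tubb1, Clec1b and Cavin2. Itgb3 and Vwf are also among the 10. The 120 bases just before the annotated start follow for the 5 selecting genes and for Gp1ba and Gp5, which complete the von Willebrand factor receptor. Capitals mark AGGAA or its reverse complement TTCCT, a core bound by ETS factors such as FLI1, and GATAA or its reverse complement TTATC, a core bound by GATA factors.
Pf4: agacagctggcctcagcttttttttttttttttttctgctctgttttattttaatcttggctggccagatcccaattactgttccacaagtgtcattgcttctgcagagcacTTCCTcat
Itga2b: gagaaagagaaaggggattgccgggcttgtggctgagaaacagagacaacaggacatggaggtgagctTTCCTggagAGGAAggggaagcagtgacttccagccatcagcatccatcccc
Gp9: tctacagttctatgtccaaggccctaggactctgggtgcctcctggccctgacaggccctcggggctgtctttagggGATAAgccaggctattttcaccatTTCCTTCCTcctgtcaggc
Gp1bb: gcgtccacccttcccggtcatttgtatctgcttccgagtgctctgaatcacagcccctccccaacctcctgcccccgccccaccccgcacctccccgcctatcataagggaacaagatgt
Treml1: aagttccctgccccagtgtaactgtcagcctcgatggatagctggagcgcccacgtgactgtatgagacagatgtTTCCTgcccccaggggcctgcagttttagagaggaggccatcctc
Gp1ba: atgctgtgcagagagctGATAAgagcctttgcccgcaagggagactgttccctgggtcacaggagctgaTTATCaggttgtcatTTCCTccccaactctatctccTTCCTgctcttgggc
Gp5: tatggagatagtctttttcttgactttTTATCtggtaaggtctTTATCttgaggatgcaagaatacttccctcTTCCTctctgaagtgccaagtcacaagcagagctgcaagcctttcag
These windows lie at chr5:90772315-90772434 on the plus strand, chr11:102469884-102470003 on the minus strand, chr6:87777950-87778069 on the plus strand, chr16:18622404-18622523 on the minus strand, chr17:48359796-48359915 on the plus strand, chr11:70639002-70639121 on the plus strand and chr16:30310782-30310901 on the minus strand. The AGGAA letters stood in the 120 bases of 4 of 5 selecting genes, against 35.2% of all 32851 promoters in the table, and the GATAA letters in 1 of 5, against 10.5%. Gp1ba and Gp5 carried 2 GATAA matches each, and Gp9 was the selecting gene with both motifs, which 4.07% of all promoters had in this window. A match is a description of letters and shows no binding.

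The label was checked against the 10 further platelet genes, which the rule did not use. The data backed it for the barcodes with 3 or more selecting genes and, at the depth they had, not for most of the others. Of the 44 barcodes in which at least 3 of the 5 selecting genes had a UMI, 42 held at least 1 of the 10 platelet genes and 39 held at least 3. Of the 54 barcodes with 1 or 2 selecting genes, 34 held 0 of the 10 and 2 held 3 or more. Vwf, the von Willebrand factor gene, was detected in 30 of the 44 and in 2 of the 54, and Gp5 in 30 of the 44 and 3 of the 54. The 2 groups differ in depth, with 23 of the 44 over 10,000 UMIs and 38 of the 54 under 2000 UMIs. With each barcode thinned to 1000 UMIs, 71.1% of the deeper group were expected to show any of the 10 genes, where 95.5% did so unthinned. No such share was taken for the 54 alone, so the part of depth in the 34 without any of the 10 was not tested. The thinned share was 49.6% over all selected barcodes (63.3% unthinned, 17 shallower barcodes left out), 2.03% in B lineage barcodes (5.65% unthinned), 1.85% in macrophages (9.50%) and 2.98% in erythroid barcodes (9.61%), whose unthinned median depths were 2666, 2511, 7453 and 6057 UMIs. The 98 are therefore called selected barcodes below, and the 44 are called multi-gene barcodes.

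Other lineages were present among the selected barcodes. Limits on lineage marker sums were set after their values were seen. In UMIs per 10,000 they were 500 for neutrophil and haemoglobin genes, 300 for chondrocyte genes and 40 for B lineage and endothelial genes. They placed 41 of the 98 at a high level of another lineage, 33 of the 54 with few selecting genes and 8 of the 44 multi-gene barcodes. The share of all kept barcodes at these limits was not taken, so the 41 are not set against it. B lineage genes reached their limit in 15 of the 54 and neutrophil genes in 10, against 4 and 2 of the 44. The selection often rested on little: 12 barcodes passed on a single UMI and 44 on 1 to 5 UMIs of the selecting genes. Macrophage and basophil genes were held down by the rule itself, which limits C1qa, C1qb, C1qc, Mcpt8 and Prss34, so their low sums are no check. The 8 macrophage genes summed to 0.39, 0.10, 0.31 and 1.77 UMIs per 10,000 (C1qa at 0), to 0, 0, 0.086 and 0.041 in the multi-gene barcodes and to 7.35, 0.74, 2.68 and 11.1 in those with fewer selecting genes. A single barcode of the mutant at day 19 held 91 of the 101 macrophage UMIs behind that last value. The 7 basophil and mast cell genes summed to 0.02 to 0.37 (Prss34 and Fcer1a at 0). The part of these other cells in the results below was not tested, other than by giving values for the multi-gene barcodes.

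**Figure D1:**
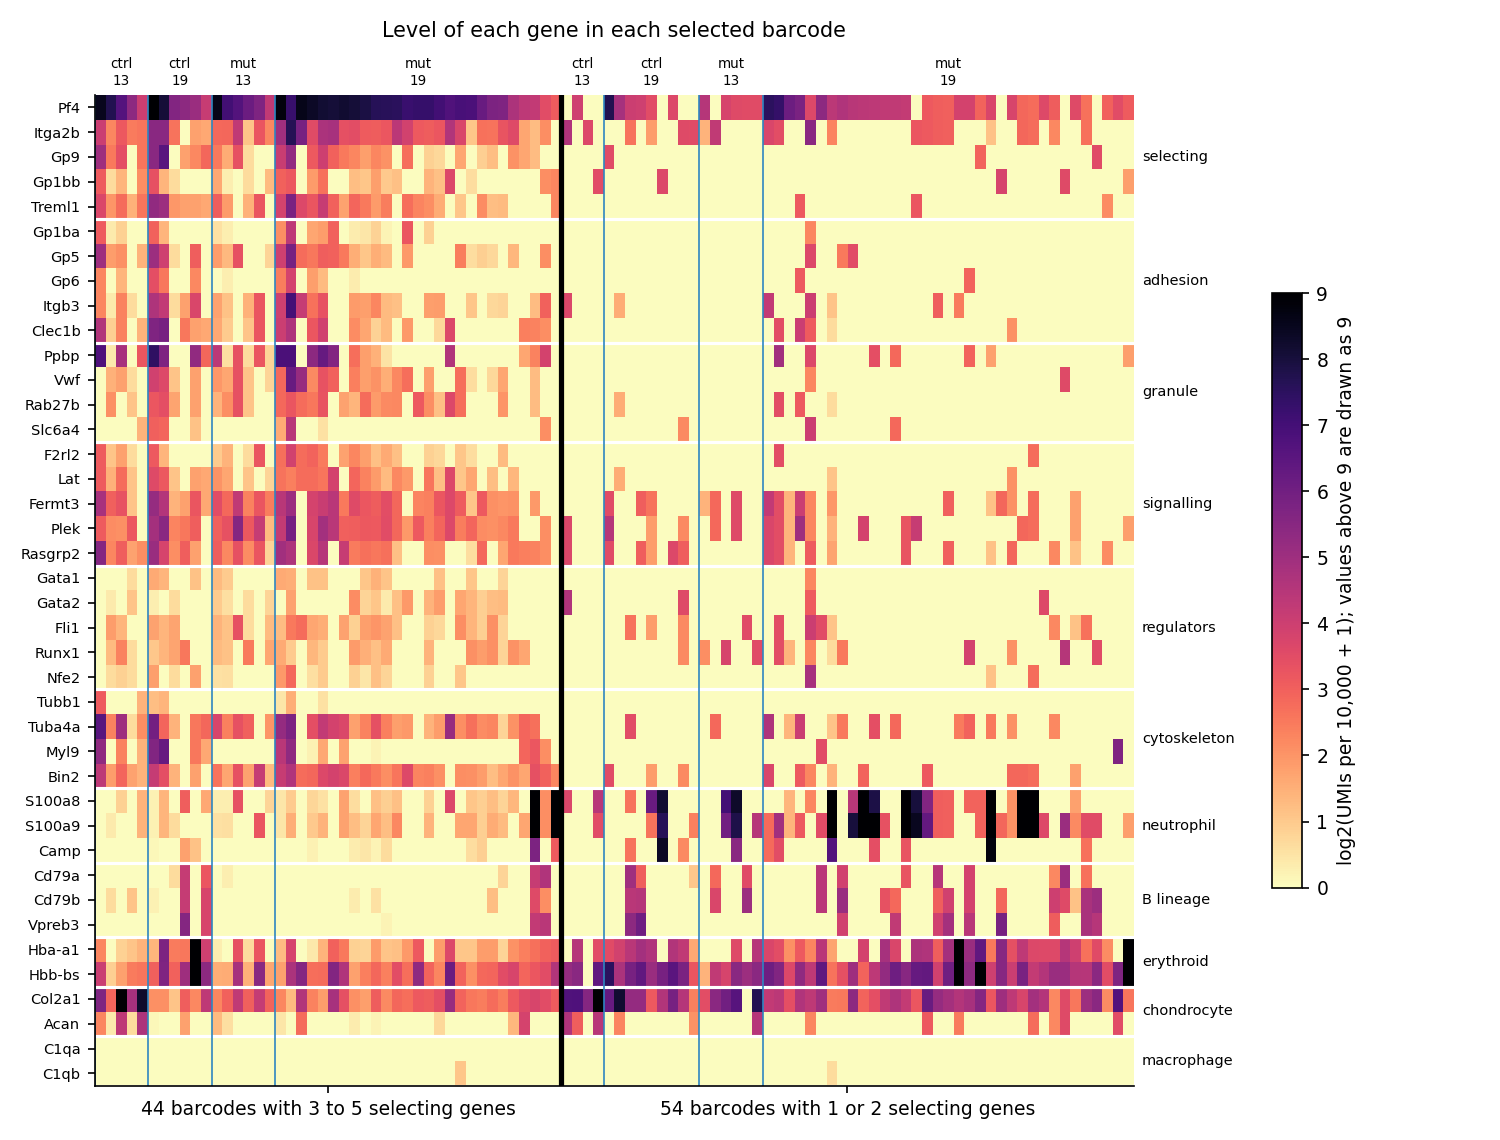
Level of 40 genes, in rows, in each of the 98 selected barcodes, in columns, as log2(UMIs per 10,000 + 1). The black line parts the 44 barcodes with 3 to 5 selecting genes from the 54 with 1 or 2, and blue lines part the libraries (ctrl, control; mut, mutant; 13 and 19, days of age). Platelet genes fill the left side, and S100a8, Cd79a and other lineage genes stand out in single barcodes, most of them on the right.

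Near the threshold the barcodes changed gradually. The lowest selected barcodes of the 4 libraries had sums of 10.3, 10.6, 10.7 and 10.1 UMIs per 10,000, and the highest ones left out had 9.30, 9.78, 9.43 and 9.81. Between 10 and 12 stood 2, 4, 3 and 10 selected barcodes, and between 8 and 10 stood 2, 7, 6 and 36 that were left out. Of all barcodes left out below the threshold, 0, 1, 1 and 2 had 3 or more selecting genes. The C1q limit removed more: the sum was reached by 73, 40, 70 and 107 barcodes, and the limit removed 64, 25, 58 and 45 of them, while the Mcpt8 and Prss34 limit removed 0. Macrophages carried Pf4 at 29.9, 22.2, 21.7 and 13.7 UMIs per 10,000 and 2 or fewer UMIs of Itga2b, Gp9, Gp1bb and Treml1 together in each library. In the control at day 13 macrophages held 69.1% of the Pf4 UMIs of kept barcodes and the selected barcodes 28.4%. Treml1 was the most confined of the 5, with 89.7%, 97.3%, 78.0% and 91.0% of its UMIs in selected barcodes.

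The sums of the 5 selecting genes differed between libraries, and how far they did so moved with the largest barcodes. Pf4 stood at 133, 368, 184 and 181 UMIs per 10,000 summed over the selected barcodes, in 6, 12, 11 and 58 of them. The control at day 19 was far above the others, and 95.1% of its 7053 Pf4 UMIs came from 1 barcode of 123502 UMIs. Averaged over barcodes with equal weight, Pf4 was 81.6, 82.5, 68.6 and 84.0, so the libraries lay close together on that scale. Without the largest barcode of each library the sums were 69.5, 50.6, 83.9 and 179.8, and the mutant at day 19 was then the highest. Itga2b, the alpha chain of the fibrinogen receptor, stood at 5.37, 30.4, 5.17 and 17.0 in the sums and at 7.99, 8.34, 5.34 and 10.4 in the means over barcodes. Gp9 stood at 5.10, 31.6, 2.35 and 5.48 in the sums, at 5.61, 10.7, 1.37 and 2.19 in the means and at 5.46, 9.69, 1.17 and 5.79 without the largest barcodes. The control at day 19 was highest on each scale, but of its 605 Gp9 UMIs 539 lay in the largest barcode and 58 in another of 6212 UMIs. Treml1 stood at 3.40, 26.2, 3.61 and 6.58 in the sums, at 3.001, 5.35, 1.695 and 2.84 in the means and at 3.795, 4.26, 1.76 and 6.86 without the largest barcodes. Gp1bb, the beta chain of GPIb, was thinly counted, at 9, 117, 13 and 119 UMIs. It overlaps Sept5 and AC133488.1 on the same strand, so its reads cannot be told apart from theirs with certainty, and 96.4% of its UMIs in the control at day 13 lay outside the selected barcodes.

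That single barcode shapes every summed value of its library. It held 64.4% of the UMIs of the selected barcodes in the control at day 19, 6512 genes, a selecting sum of 677 UMIs per 10,000 and 331 UMIs per 10,000 of the 10 platelet genes. The largest barcodes of the other libraries held 44.8% (34245 UMIs), 33.1% (42248 UMIs) and 11.8% (68975 UMIs). Median depths of the selected barcodes were 2583, 4121, 1411.5 and 2617 UMIs, against 9720, 5531, 9044 and 5409 for all kept barcodes. For the genes named next, the level in the control at day 19 without that barcode is given after the 4 sums.

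**Figure D2:**
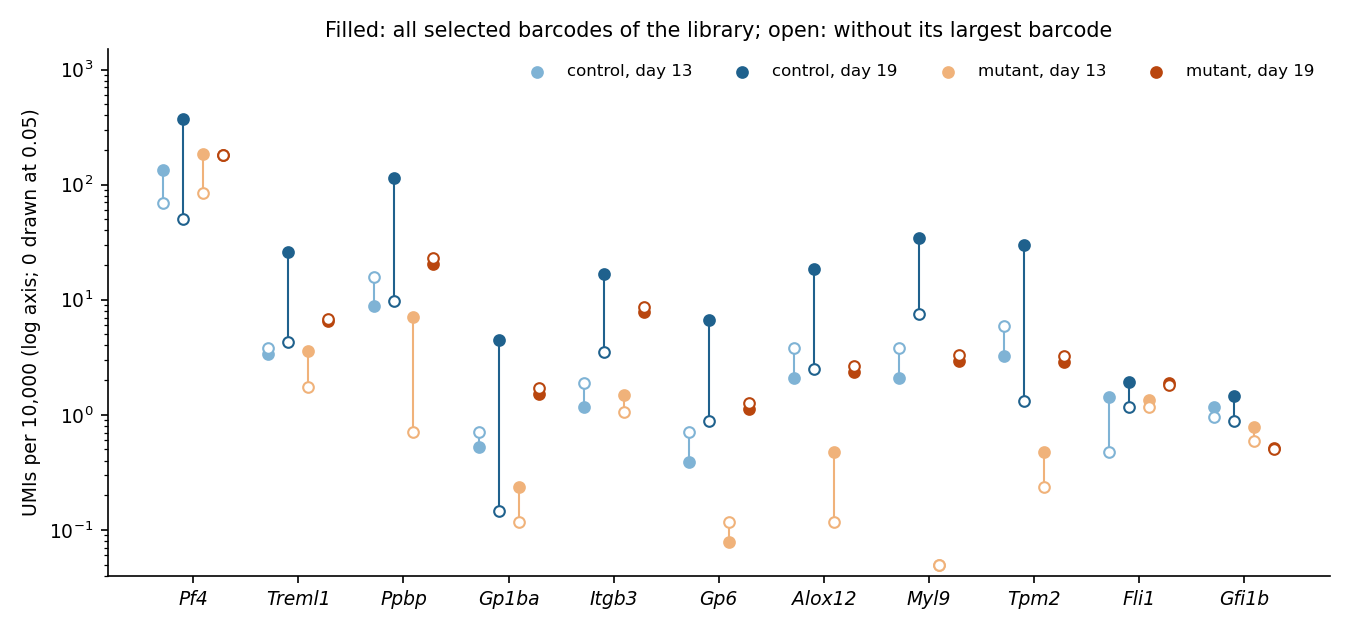
Level of 11 genes in UMIs per 10,000 summed over the selected barcodes of each library (filled points) and without the largest barcode of that library (open points), on a log axis with 0 drawn at 0.05. The control at day 19 drops furthest for most genes, for instance from 368 to 50.6 for Pf4 and from 4.49 to 0.15 for Gp1ba. Fli1 drops furthest in the control at day 13, and Pf4 in the mutant at day 19 moves from 181 to 179.8.

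Adhesion receptors stood above the other kept barcodes for most genes: 12 of 15 genes were higher in the selected barcodes of all 4 libraries and 0 were lower in all. Gp5, the chain that caps the von Willebrand factor receptor, stood at 2.88, 21.2, 1.49 and 4.72 UMIs per 10,000, where the other barcodes had 0.003 to 0.012. In the control at day 19, 96.1% of its UMIs came from the largest barcode, and without the largest barcodes Gp5 stood at 3.08, 2.35, 0.94 and 5.16. Clec1b, the podoplanin receptor CLEC-2, stood at 1.96, 34.4, 1.25 and 4.38, and at 5.87 in the control at day 19 without its largest barcode. Itgb3, the beta chain of the fibrinogen receptor, stood at 1.18, 16.8, 1.49 and 7.85, and at 3.52 in that control without the largest barcode. Gp6 was rare, with 3, 128, 1 and 65 UMIs in 13 of the 98 barcodes, and at 0.88 UMIs per 10,000 in the control at day 19 without that barcode.

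Granule genes divided by kind. Of 16 alpha granule genes 8 were higher than in the other barcodes in all 4 libraries and 2 were lower in all. Ppbp, the precursor of platelet basic protein, stood at 8.77, 115, 7.05 and 20.5 UMIs per 10,000 against 0.002 to 0.049 elsewhere, and at 9.69 in the control at day 19 without its largest barcode. Vwf stood at 1.31, 9.60, 1.96 and 5.41, and at 1.61 in that control without the barcode. Sparc, a matrix protein that platelets store and that bone and cartilage cells make, ran the other way, at 82.1, 11.9, 6.19 and 4.83 against 96.9 to 179.9 in the other barcodes. Of 10 dense granule and amine transport genes 6 were higher in all libraries, among them Rab27b, a GTPase of granule secretion, at 1.70, 6.05, 1.88 and 3.31 (1.91 in the control at day 19 without the barcode). Slc6a4, the serotonin transporter, was counted 1, 93, 0 and 58 times, in 11 barcodes, and 93.5% of the 93 lay in the largest barcode (0.88 UMIs per 10,000 without it, against 4.85).

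Receptors and signalling genes of platelet activation were higher in all 4 libraries for 15 of 20 and lower in all for 0. F2rl2, which encodes the thrombin receptor PAR3, had the greatest smallest ratio of 826 genes, the selecting genes left out, with at least 10 UMIs in the selected barcodes of every library, a log2 difference of at least 10.2, at 1.31, 5.11, 1.02 and 2.70 UMIs per 10,000 (0.15 in the control at day 19 without its largest barcode). Lat, the adaptor of collagen receptor signalling, stood at 2.22, 7.62, 1.96 and 2.88 (1.61 without that barcode). Rasgrp2, the activator of the integrin switch Rap1, stood at 5.37, 22.9, 4.31 and 7.75 (3.67 without it), and Fermt3, the integrin activator kindlin-3, at 5.76, 24.1, 6.90 and 9.14 (4.40 without it). Ranked in the same way, Ppbp, Clec1b, Gp5 and Lat came next, followed by Rbpms2, Dok2, Tmem40, Rgs18, Cavin2, Plek, Vwf, Ctla2a, Fermt3, F10, Bin2, Unc119, Rab27b, Rasgrp2 and Fam212a, the last at a log2 difference of at least 3.63. Of these 20 genes, Rbpms2, Dok2, Tmem40, Rgs18, Ctla2a, F10, Unc119 and Fam212a stood in none of the platelet lists used here. F10, coagulation factor X, was counted 14, 116, 25 and 150 times in 30 of the 98 barcodes, with 95.7% of the 116 in the largest barcode.

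Regulators were higher in all 4 libraries for 15 of 17 genes, and they varied less between libraries than the adhesion genes. The 17 genes summed to 20.7, 28.4, 23.9 and 26.6 UMIs per 10,000, against 23.2, 166, 16.9 and 43.6 for the adhesion list. Without the largest barcodes the sums were 15.4, 15.1, 24.02 and 25.8 for regulators and 29.7, 46.8, 12.9 and 47.2 for adhesion. Fli1 stood at 1.44, 1.93, 1.33 and 1.87 in the sums, and at 0.47, 1.17, 1.17 and 1.81 without the largest barcodes. Gata1 was counted 1, 27, 10 and 50 times and Gata2, the GATA factor of earlier progenitors, 5, 7, 8 and 50 times. Meis1, a homeobox factor of stem cells and megakaryocytes, stood at 2.09, 0.16, 0.86 and 0.93, where the control at day 19 was the lowest.

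Genes of the cytoskeleton were higher in all libraries for 14 of 20, yet Tubb1, the beta tubulin of proplatelets, was counted 3, 17, 0 and 7 times, in 7 of the 98 barcodes. Those 7 were all multi-gene barcodes. Tuba4a, an alpha tubulin, stood at 10.3, 39.8, 6.82 and 9.14 UMIs per 10,000, and at 15.4, 2.35, 4.10 and 9.78 without the largest barcodes, where the control at day 19 was the lowest. Cell cycle genes were not set apart in this way, with 1 of 20 higher in all libraries and 1 lower in all. They summed to 16.9, 14.7, 28.1 and 23.5 against 6.67, 24.4, 7.95 and 13.1 elsewhere, so the control at day 19 lay below its other barcodes and the remaining 3 libraries lay above theirs. Top2a, the topoisomerase of S phase and mitosis, stood at 1.96, 0.26, 4.86 and 3.11.

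Of 13 signals that megakaryocytes can send to the marrow niche, 3 were higher than elsewhere in all libraries, 6 lower in all, and Vegfc, Fgf1, Thpo and Wnt5b were at 0 in the selected barcodes. Tgfb1, the cytokine that holds stem cells quiescent, stood at 7.07, 18.3, 6.98 and 10.01 UMIs per 10,000 against 0.99 to 2.17 elsewhere, and at 3.67 in the control at day 19 without its largest barcode. Angpt1, the ligand of the TIE2 receptor on vessels and stem cells, stood at 1.31, 1.72, 1.33 and 1.56, values that lay close together, and at 1.03 in that control without the barcode. Vegfa was counted 1, 3, 3 and 24 times and stood below the other barcodes.

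Among the 44 multi-gene barcodes the platelet program came in grades. The 10 platelet genes summed to 0 to 457.5 UMIs per 10,000 per barcode, with a median of 12.8, and 8 barcodes lay within 20% of the median. Across barcodes the sum ran with the rest of the adhesion list (Spearman's rho 0.71, 10 genes), with signalling (0.73, 20 genes), with the cytoskeleton (0.55), the dense granules (0.53) and the alpha granules (0.50), and with neither the transcription factors (-0.04, 16 genes) nor the cell cycle (-0.02, 20 genes). These are descriptions over 44 barcodes, 27 of them from the mutant at day 19, and values of 1 barcode share its library and depth. Depth itself had a rho of 0.02 with the sum. With the lists depth had 0.62 for transcription factors, 0.34 for the cytoskeleton, 0.23 for signalling, 0.15 for dense granules and 0.12 for adhesion. It had -0.04 for alpha granules and 0.01 for the cell cycle, and its part in the values was not tested. In the 17 barcodes of the other 3 libraries rho with the sum was 0.92 for adhesion, 0.77 for signalling, -0.27 for transcription factors and -0.46 for the cell cycle, and in the 27 it was 0.62, 0.67, 0.19 and 0.28. The last 2 lists thus had opposite signs in the 2 sets of barcodes, which their values over all 44 average.

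**Figure D3:**
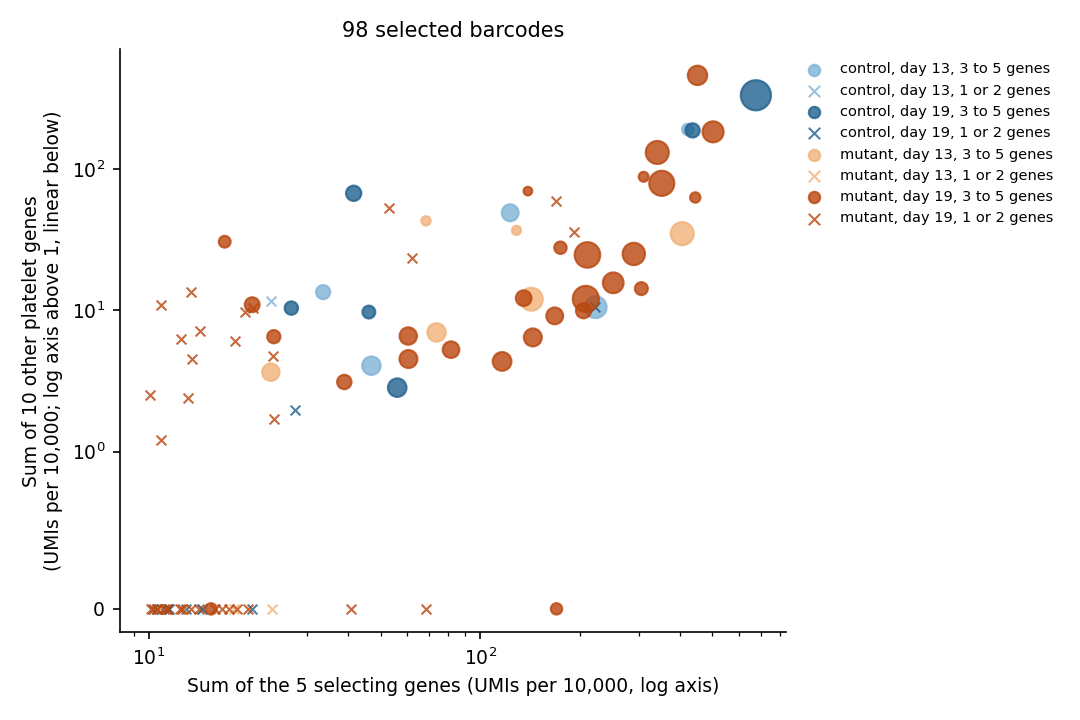
Sum of the 5 selecting genes (horizontal, log axis) and of 10 platelet genes the rule did not use (vertical, log above 1 and linear below) in UMIs per 10,000 for each of the 98 barcodes, coloured by library. Circles are the 44 barcodes with 3 to 5 selecting genes, their area growing with depth, and crosses the 54 with 1 or 2, 34 of which lie at 0 platelet genes.

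Split at the median, a division made after the values were seen, the 22 barcodes with more platelet RNA had a median of 7204 UMIs and the 22 with less had 12877.5. All 10 adhesion genes, 16 of 20 signalling genes and 16 of 18 cytoskeleton genes had higher means in the upper part both in the mutant at day 19 and in the other 3 libraries, as did 6 of 16 transcription factors and 4 of 20 cell cycle genes. Lower means in both were found for 9 of the 20 cell cycle genes, 5 of the 16 transcription factors, 1 signalling gene and 0 adhesion or cytoskeleton genes. Tuba4a averaged 18.9 UMIs per 10,000 in the upper part and 3.17 in the lower. Parvb, a linker of integrins to actin, averaged 5.32 and 0.24, and was found in 17 and 5 barcodes. Gas2l1, a linker of actin to microtubules, averaged 4.33 and 0.10, and Alox12, the platelet 12-lipoxygenase, 6.58 and 0.32. The genes that ran the other way included Ddx21, an RNA helicase of ribosome production, at 0.58 and 3.08, Cdk6, a kinase of the G1 phase, at 0.15 and 1.82, and Nsun2, an RNA methyltransferase, at 0.14 and 1.79. Cdk6 was found in 5 barcodes of the upper part and in 17 of the lower one. These genes were picked for this difference, which has no test. Markers of other cells moved with the split, and their part in it was not tested. The 9 neutrophil genes averaged 3.39 in the upper part and 281.9 in the lower one (medians 2.495 and 3.89), the 7 B lineage genes 3.63 and 17.6 (medians of 0 in both), and the 9 chondrocyte genes 90.3 and 12.2 (8.89 and 8.945). Vpreb1 and Dntt, genes of early B cells, were also among the 15 that ran most strongly toward the lower part, each in 2 of its barcodes.

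**Figure D4:**
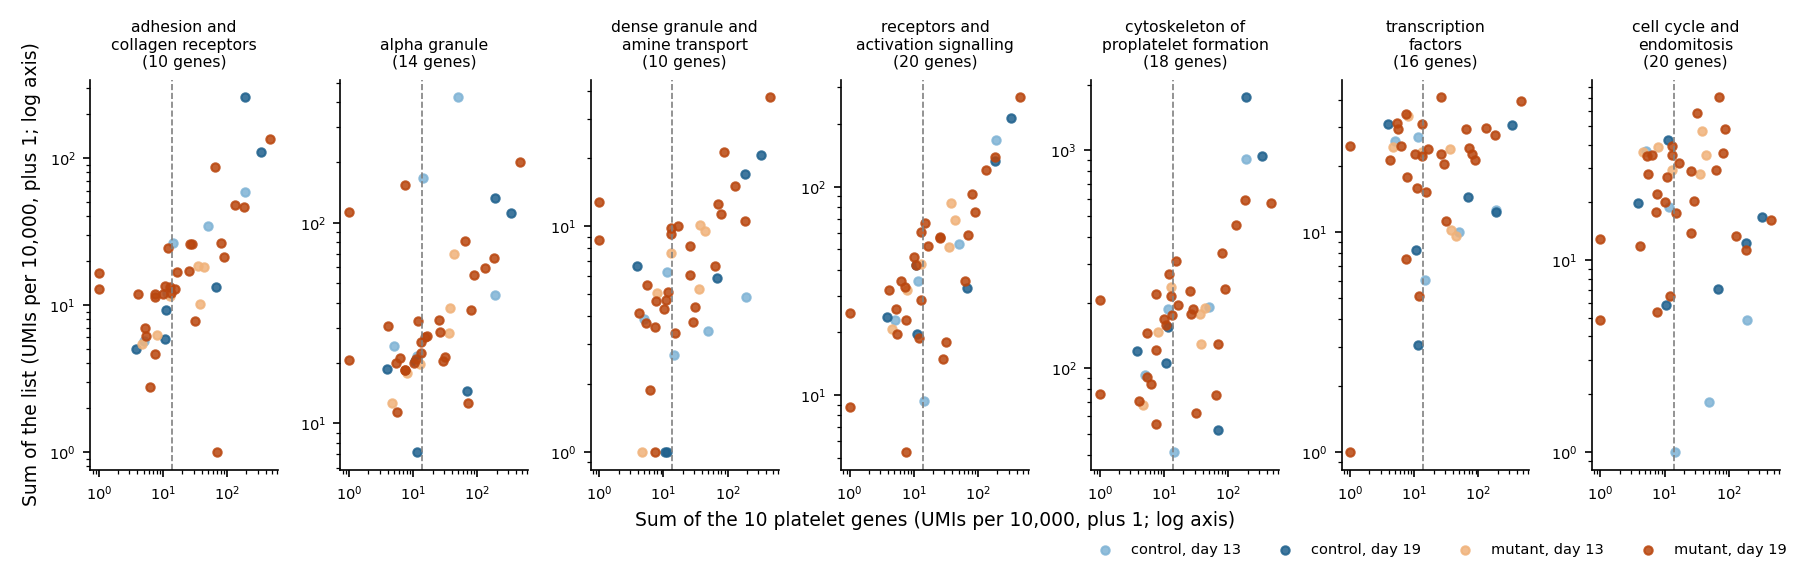
Summed level of 7 gene lists (vertical) against the sum of the 10 platelet genes (horizontal), both as UMIs per 10,000 plus 1 on log axes, for the 44 multi-gene barcodes coloured by library. The 10 genes are left out of the lists, and the dashed line is the median of 12.8. Adhesion and signalling rise along the axis, and transcription factors and cell cycle genes have no such slope over all 44.

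The share of selected barcodes was compared between ages and genotypes. It was highest in the mutant at day 19, at 0.624% of kept barcodes (95% exact Clopper-Pearson interval 0.478 to 0.799), and 0.142% (0.0649 to 0.269), 0.207% (0.116 to 0.341) and 0.162% (0.0835 to 0.282) in control day 13, control day 19 and mutant day 13, whose intervals overlap. Mutant over control was 3.01-fold at day 19 (interval 1.69 to 5.70) and 1.14-fold at day 13 (0.440 to 3.06). Day 19 over day 13 was 3.86-fold in mutants (2.06 to 7.87) and 1.46-fold in controls (0.598 to 3.78). These intervals cover counting error only, and with 1 library a group the spread between animals is unknown, so no test is given. Among the multi-gene barcodes the counts were 5, 6, 6 and 27, and mutant over control at day 19 was 3.28-fold (1.33 to 9.71).

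**Figure D5:**
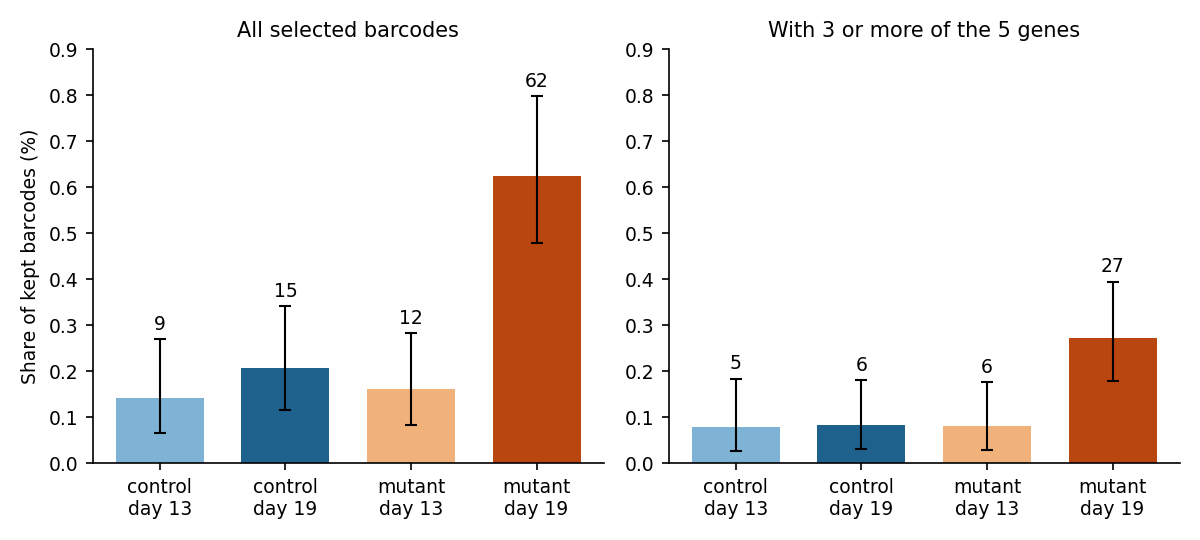
Share of kept barcodes that were selected (left) and that had 3 or more of the 5 selecting genes (right) in each library, in percent, with 95% exact intervals as bars for counting error and the number of barcodes above. The mutant at day 19 is above the other 3 libraries in both panels.

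The share moved with the barcodes it was taken over. Over barcodes of the blood lineages alone, the denominator being the selected barcodes and those at set limits of erythroid, B lineage, macrophage or basophil genes (854, 4970, 1492 and 3541 barcodes), the shares were 1.05%, 0.302%, 0.804% and 1.75%. Mutant over control at day 19 was then 5.80-fold (3.26 to 10.98), while day 19 over day 13 in controls was 0.286-fold (0.117 to 0.742), the opposite direction to the share of all kept barcodes. With at least 1000 genes per barcode the day 19 ratio was 2.08-fold (0.998 to 4.74), an interval that reaches 1. The 35 barcodes of the mutant at day 19 with 1 or 2 selecting genes include 24 at a high level of another lineage, against 4 of 9 in the control at day 19. Fewer cells of a type and cells lost in dissociation cannot be told apart here.

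Genotype was compared over the 4 summed libraries with age as a second term, by edgeR's quasi-likelihood test with Benjamini-Hochberg adjustment, which left 1 residual degree of freedom, and its p-values measure the spread left between these 4 libraries, which may be technical. Of 2401 genes tested, selecting genes left out, 31 passed an adjusted p of 0.05 (1.29%), 11 higher in mutants (0.458%) and 20 lower (0.833%), and 273 had an unadjusted p under 0.05. Of the 20 lower genes 3 were in the platelet lists. The adhesion list had 1 lower and 0 higher of 9 tested (median log2 difference -1.71, against 0.01 over all genes tested), signalling 1 lower of 15 (-0.84), the cytoskeleton 1 lower of 18 (-1.10), alpha granules 0 of 10 (-1.19), dense granules 0 of 3 (-0.69), regulators 0 of 16 (-0.29) and niche signals 0 of 3 (-0.32), while the cell cycle had 1 higher of 14 (Cenpf, 1.36). These medians include the largest barcode of each library. With those left out, the summed adhesion list at day 19 stood at 46.8 in the control and 47.2 in the mutant. Signalling stood at 29.8 and 63.97, alpha granules at 73.7 and 71, and the cytoskeleton at 268 and 255. At day 13 these sums were 29.7 and 12.9, 36.5 and 32.9, 186 and 22.3, and 163 and 179. The part of the largest barcodes in the medians was not tested.

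The platelet genes lower in mutants were Gp6, Alox12 and Myl9. Gp6 fell by 2.85 on the log2 scale (SE 0.67, edgeR adjusted p = 0.0451), from 3 and 128 counted molecules in the control libraries to 1 and 65 in the mutant ones. Alox12, at 2.09 and 18.5 UMIs per 10,000 in controls and 0.47 and 2.35 in mutants, fell by 2.94 (SE 0.71, edgeR adjusted p = 0.0452). Myl9, the myosin light chain that restrains proplatelets, stood at 2.09 and 34.0 in controls and at 0 and 2.92 in mutants (log2 difference -4.29, SE 0.86, edgeR adjusted p = 0.0252). In each of the 3 the largest barcode of the control at day 19 supplied most of that library's UMIs, 95.3%, 95.2% and 92.2%. Without the largest barcode of each library Alox12 stood at 2.49 in that control, Myl9 at 7.48 and Gp6 at 0.88. The largest barcode of the mutant at day 19 held 0.73% of that library's Alox12 UMIs and 0% of its Gp6 and Myl9 UMIs. Without the largest barcodes Alox12 and Gp6 were higher in the mutant than in the control at day 19, and Myl9 was lower. Alox12 and Myl9 no longer passed (log2 differences -1.56 and -2.36), and Gp6 did not pass the filter on low counts.

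The 10 greatest decreases in mutants included Myl9, Ccl3 and several genes of connective tissue. Serpinf1, Meg3, Dcn and Col3a1, expressed by fibroblasts and bone cells, had log2 differences of -5.67, -4.80, -3.68 and -3.32 with edgeR adjusted p of 0.0252, 0.00152, 0.0126 and 0.0252. Dcn, the matrix proteoglycan decorin, stood at 3.40 and 5.95 UMIs per 10,000 in controls and 0.55 and 0.38 in mutants, and in the other kept barcodes at 11.3, 5.08, 19.4 and 13.7, higher in mutants at both ages. The multi-gene barcodes of the control at day 19 had 0.24 UMIs per 10,000 over the 6 osteoblast and fibroblast genes and its barcodes with fewer selecting genes had 109.8. A single barcode of 9447 UMIs, with 1 selecting gene detected, held 279 of the 298 UMIs behind the second value, which was 10.7 without it. The same barcode held 100% of the Serpinf1, 88.6% of the Dcn, 98.2% of the Col3a1 and 14.3% of the Meg3 UMIs of the selected barcodes in that library. In the multi-gene barcodes Meg3 passed again (log2 difference -4.503), and Serpinf1, Dcn and Col3a1 did not reach the filter on low counts. Ccl3, a chemokine, was counted 6, 50, 0 and 8 times (log2 difference -4.69, edgeR adjusted p = 0.00194). Of the 4 tested genes of the osteoblast and fibroblast list 1 was lower and 1, Ibsp, was higher in mutants. Tpm2, Cd59a and Sord were also among the 10, with log2 differences from -3.42 to -3.12, and the largest barcode of the control at day 19 held 98.4%, 93.8% and 89.7% of that library's UMIs for them.

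The 11 genes higher in mutants included 1 of the 14 tested genes of the cell cycle list, Cenpf. Tpx2, Ube2c and Cenpf, which act on the mitotic spindle and exit, had log2 differences of 4.65, 4.26 and 3.04 (edgeR adjusted p = 0.0288, 0.0252 and 0.0374). Ube2c was counted 3, 0, 25 and 214 times, and 92.0% of the 25 came from the largest barcode of the mutant at day 13. Without the largest barcodes Ube2c stood at 0.47, 0, 0.23 and 3.51 UMIs per 10,000, so the mutant at day 13 then lay below the control of that age. Cenpf was counted 2, 2, 21 and 87 times, and its log2 difference without the largest barcodes was 2.07 and did not pass. Tpx2 was counted 1, 0, 13 and 85 times, and where controls hold so few UMIs the fitted difference depends on the prior count of the fit. In the other barcodes Ube2c was higher in mutants at day 13 (log2 0.18) and lower at day 19 (-1.20). Hist1h2ap, a histone gene, was counted 1, 0, 34 and 65 times (fitted log2 5.02, edgeR adjusted p = 0.0126), a ratio at day 13 of log2 4.35 with a counting interval of 1.77 to 9.69, and histone genes have near-identical copies. Spp1 and Ibsp, matrix proteins of bone, had log2 differences of 3.81 and 4.53 (edgeR adjusted p = 0.0291 and 0.0288), and in the other kept barcodes Ibsp was higher in mutants by log2 4.26 at day 13 and 2.61 at day 19. S100a9, a calcium-binding protein of neutrophils, was counted 3, 27, 33 and 5110 times, and Nkg7, a granule gene of NK and T cells, 3, 3, 25 and 95 times, in 24 of the 44 multi-gene barcodes and 4 of the other 54. BC100530 was at 0 in both controls and had 226 UMIs in mutants, at least 28.4-fold higher against a floor of 3 UMIs over the controls (edgeR adjusted p = 0.00194), and Trbc1, a T cell receptor chain, was at least 9.06-fold higher on the same floor with 72 UMIs (edgeR adjusted p = 0.0288). Trbc1 was found in 14 of the 98 barcodes, 12 of them multi-gene barcodes, while Cd3e and Cd3g were at 0.

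The number of calls moved with the settings. With edgeR's RLE factors in place of TMM, 0 genes were higher and 1 lower, at 257 unadjusted p under 0.05. The log2 differences of the 31 genes shifted by only 0.011 to 0.045, while the prior degrees of freedom of the fit, which set how much spread is shared between genes, fell from 17.2 to 8.23. Without the largest barcode of each library 2 genes were higher and 15 lower, and 6 of the 31 were among them, with 19 of the 31 still tested. With DESeq2 the counts were 3 and 15, with 10 of the 31 shared.

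Age was tested in the same fit, and 30 of 2401 genes were higher at day 19 (1.25%) and 0 lower, with 385 unadjusted p under 0.05. DESeq2 called 36 higher and 3 lower. Here the platelet lists contributed 9 of the 30: 3 of 9 adhesion genes (Gp1ba, Itgb3 and Gp6, list median log2 2.77 against 0.01 over all genes tested), 2 of 10 alpha granule genes (F5 and Mmrn1, 2.22), 1 of 3 dense granule genes (Slc6a4, 1.47), 1 of 15 signalling genes (Alox12, 1.56) and 2 of 18 cytoskeleton genes (Gsn and Myl9, 1.72). Regulators had 0 of 16 (0.23), niche signals 0 of 3 (1.12) and the cell cycle 0 of 14 (-0.86).

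Itgb3 rose from 1.18 to 16.8 UMIs per 10,000 in controls and from 1.49 to 7.85 in mutants (log2 3.24, SE 0.72, edgeR adjusted p = 0.0303). Gp1ba, the chain that binds von Willebrand factor, rose from 4 to 86 UMIs and from 3 to 88, or 0.52 to 4.49 and 0.24 to 1.51 UMIs per 10,000 (log2 3.099, SE 0.64, edgeR adjusted p = 0.0231). F5, coagulation factor V, was counted 0 and 65 times in controls and 5 and 101 times in mutants (log2 3.45, SE 0.78, edgeR adjusted p = 0.0367). In all 3 genes each day 19 library was above each day 13 library. In the control at day 19 the largest barcode supplied 92.5%, 98.8% and 90.8% of these UMIs, and without it the levels there were 3.52, 0.15 and 0.88, of which that of Gp1ba was below the control at day 13. Within mutants Itgb3 was higher at day 19 by log2 2.40 (counting interval 1.74 to 3.14) and Gp1ba by 2.68 (1.09 to 4.99). The largest barcode of the mutant at day 19 held 11.8% of UMIs but 2.19% of Itgb3 and 1.14% of Gp1ba UMIs. Other barcodes carried much of the platelet RNA there. Those of 59029, 42005, 29270 and 21180 UMIs held 466, 548, 534 and 969 UMIs of the 10 platelet genes. No other barcode of that library held more than 157. The intervals leave out this spread between barcodes.

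The 3 greatest increases with age were those of Vpreb3, Vpreb1 and the serotonin transporter Slc6a4 (log2 5.77, edgeR adjusted p = 0.0045, with 93.5% of the UMIs of the control at day 19 in its largest barcode). Vpreb3 and Vpreb1, genes of the B lineage, were at 0 on day 13 and at least 8.35-fold and 5.36-fold higher at day 19 against a floor of 3 UMIs over the day 13 libraries (edgeR adjusted p = 0.0045 and 0.0291). Igkc, an antibody light chain, and Camp, a neutrophil granule peptide, rose by log2 5.44 and 5.31 (edgeR adjusted p = 0.0045 for each), S100a9 by 4.31 (0.0399) and S100a8 by 3.58 (0.0392), and the haemoglobin genes Hba-a1, Hba-a2, Hbb-bs and Hbb-bt by 4.64 to 5.45. The same genes were higher at day 19 in the other kept barcodes, Hbb-bs by log2 3.62 in controls and 2.28 in mutants and S100a9 by 2.65 and 1.96. Over all 30, 22 were higher at day 19 in the other barcodes of both genotypes. Inafm2, Prr13, Myl9 and Gp6 completed the 10 highest-ranked genes, with log2 differences of 3.797, 3.65, 4.82 and 4.21.

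The age calls leaned on the largest barcode. In 20 of the 30 genes it supplied at least 50% of the UMIs of the control at day 19, against 13 of the 31 genotype calls. Without the largest barcode of each library 8 genes were higher, 7 of them among the 30, and 16 of the 30 were still tested, all with their sign kept. Those 7 were S100a8, S100a9, Camp, Hba-a1, Hba-a2, Hbb-bs and Hbb-bt. None of the 9 platelet genes passed: Itgb3, Gsn, Alox12 and Myl9 had log2 differences of 2.26, 2.14, 1.305 and 2.401, and Gp1ba, Gp6, F5, Mmrn1 and Slc6a4 did not reach the filter on low counts. RLE factors gave 0 calls in either direction at 340 unadjusted p under 0.05, with log2 differences of the 30 genes that shifted by 0.010 to 0.039 and the same fall in prior degrees of freedom. In the multi-gene barcodes alone 73 genes were higher and 12 lower, and 24 of the 30 were shared. The largest barcode of the control at day 19 stayed in that set, with 123502 UMIs where the next deepest had 17634. The prior degrees of freedom of that fit were infinite, against 17.2 in the main fit, so the counts of calls are not like for like.

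Marker lists of other cells moved between libraries as follows. The 9 neutrophil genes summed to 1.18, 7.51, 7.84 and 189 UMIs per 10,000 in the selected barcodes, against 35.6, 228, 73.5 and 285 elsewhere. In these sums 9 of 9 genes were lower than elsewhere in every library. In the multi-gene barcodes the sums were 0.69, 1.28, 1.12 and 56.2, and in those with fewer selecting genes 9.80, 45.3, 77.7 and 902, so the mutant at day 19 was highest in each. The sums with fewer selecting genes lay above those elsewhere in the mutants of both ages, most in the mutant at day 19. In its multi-gene barcodes 2 of 27, 1 of them marked as a doublet by Scrublet, held 2596 of the 2758 neutrophil UMIs, and the sum without these 2 was 3.37. The 9 chondrocyte genes found in the files summed to 259, 15.97, 13.3 and 9.15, which sets the control at day 13 apart, where 2 of 5 multi-gene barcodes stood above 300. In the other barcodes the chondrocyte sums were 841, 350, 244 and 226. The 7 B lineage genes summed to 0.65, 8.24, 1.49 and 5.19 and the 10 erythroid genes to 1.05, 6.89, 0.71 and 3.66, in each case higher at day 19 for both genotypes. T and NK genes summed to 0.39, 0.16, 1.96 and 1.72 (Cd3e and Cd3g at 0), endothelial genes to 1.96, 0.31, 0.31 and 0.79 (Cldn5 at 0), and stem and progenitor genes to 3.14, 3.39, 2.27 and 3.52 (Flt3 at 0) against 0.41 to 0.86 elsewhere. Of the 8 stem and progenitor genes 1 was higher than elsewhere in all 4 libraries. In the multi-gene barcodes Adgrg1 alone averaged 3.26 of the list's 3.33 in the upper part of the platelet gene split and 2.88 of 3.45 in the lower.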

How the data were processed

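The deposited values were raw UMI counts per gene and barcode, made by the authors with Cell Ranger (3.1.0 per the file headers) on mm10, per the submitters' processing notes, which also name Seurat 3 with no role. The lowest barcode held 500 UMIs; the sources used here name no removal of free RNA. Members, gene lists and tests were chosen with earlier results of these data known. Genes named are the selecting genes, members of lists, the 20 highest by smallest ratio to other barcodes, and up to 10 called each way, without mitochondrial, ribosomal, haemoglobin, sex-linked and unnamed genes in rankings; others were picked after their values were seen. Counts were summed per library and tested with edgeR 4.0.16 (TMM, filterByExpr, genotype plus age, adjusted over 2406 genes); scripts were tested on simulated counts. Scrublet (scanpy 1.11.5) scored kept barcodes; doublets were kept, since its automatic threshold marked 0 barcodes in 2 libraries, and 1 selected barcode was marked. Of 31053 features 31011 matched GENCODE M21. Intervals cover counting error only. Alternatives were other filters, scalings, DESeq2 1.42.0 and barcode subsets. Of 10 chondrocyte markers 9 matched; Fam212a, Sept5 and like names are those of the files. Values of 2 genes are not reported here.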

Additional observations from a re-analysis of the deposited data

How the results depend on the processing

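Share ratios are log2 here. The day 19 mutant over control ratio of 1.59 stayed positive under every alternative run (0.962 to 2.54). It was 2.54 over the blood lineage barcodes set out above, which leave out neutrophils among others. Day 19 over day 13 in controls, 0.55, became -1.06 without the C1q limit and -1.80 over those blood lineage barcodes. In mutants that ratio, 1.95, became 0.192 without the C1q limit. Genotype calls (higher, lower; 11 and 20) were 0 and 1 with RLE, 35 and 62 with no filter, 0 and 0 without the age term, 23 and 48 without the top 5% of doublet scores, 20 and 54 at 1000 genes or more, 2 and 15 without the largest barcodes (15 within 1.5 times of 20), and 3 and 15 with DESeq2. Age calls (30 and 0) were 0 and 0 with RLE and without the genotype term, 123 and 12 with no filter, 73 and 12 in multi-gene barcodes, 96 and 10 without the top doublet scores, 87 and 8 at 1000 genes or more, 8 and 0 without the largest barcodes, and 36 and 3 with DESeq2. The prior degrees of freedom were infinite with no filter, in multi-gene barcodes, without the top doublet scores and at 1000 genes or more. The sum of the 10 platelet genes, 21.1, 223, 17.4 and 52.9 UMIs per 10,000, became 29.7, 27.4, 8.79 and 58.3 without the largest barcodes, 259.7 and 61.7 at day 19 in multi-gene barcodes, and 55.0 in the mutant at day 19 without the top doublet scores. The subsets without the largest barcodes, without the top doublet scores and over blood lineages were chosen after seeing the data. No fitted sign of a called gene reversed in the settings where the gene was tested. Without the largest barcodes 19 of the 31 genotype genes and 16 of the 30 age genes were tested. Single ratios did reverse there. Gp1ba was lower at day 19 than at day 13 in controls, and Gp6, Alox12 and Tpm2 were higher in the mutant at day 19 than in its control. The causes of these moves were not tested. Leaving out a library leaves 0 residual degrees of freedom and gives no call. The labels give each library the same replicate number and link none as pairs, so no pairing was fitted beyond the age term. Depth limits single genes: 44 barcodes rest on 1 to 5 selecting UMIs.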

Other observations

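Barcodes under 500 genes were not part of the selection. Of 1368, 2697, 1105 and 2439 such barcodes with few genes in the 4 libraries, 15, 25, 22 and 75 met the rest of the rule, or 1.10%, 0.927%, 1.99% and 3.08%, at median depths of 689 to 745 UMIs. Most of them held a single selecting gene (14, 19, 19 and 64), and 1, 2, 1 and 2 held 3 or more. Barcodes with 3 or more of the 10 platelet genes numbered 1, 2, 1 and 4. Of the barcodes above 15% mitochondrial UMIs, 0, 1, 0 and 3 met the rule.

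Itga2b had more UMIs outside the selected barcodes than in them at day 13, with 84.9% outside in the control and 88.7% in the mutant, against 20.1% and 32.3% at day 19. In the control at day 19 the largest barcode held 528 of the 582 Itga2b UMIs in the selection, against 146 outside it. In basophils and mast cells, set by Mcpt8 and Prss34, Itga2b stood at 0.89, 1.33, 0.75 and 1.02 UMIs per 10,000, against 0.03 to 0.07 over all barcodes outside the selection, while Gp9, Gp1bb and Treml1 had 1 UMI in all basophils together.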
